A study of Mus musculus with 15 samples.

Results

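The mRNA of 9 enzymes that carry out fatty acid oxidation in mitochondria were followed through mouse CD8+ T cells. The members were the rows of the deposited expression tables with the symbols Cpt1a, Cpt2, Acadvl, Acadl, Acadm, Acads, Hadha, Hadhb and Hadh. The rule for them uses names and no measured value, although the members were chosen with earlier results of these data known. All 9 were found in the table of naïve and activated cells, which holds 11262 genes, and all 9 in the table of cytotoxic T lymphocytes (CTL), which holds 11211 genes. No member was lost to a filter on low values.

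Fatty acids enter mitochondria as carnitine esters. CPT1A, on the outer membrane, makes the ester and is the rate-limiting and malonyl-CoA-sensitive step, and CPT2, on the inner membrane, returns the fatty acid to coenzyme A. Each round of β-oxidation then starts with an acyl-CoA dehydrogenase fitted to the length of the chain and continues with hydration, a further oxidation and cleavage, which the trifunctional protein performs for long chains. Fatty acid oxidation is best known in T cells from work on quiescent and memory cells, and activated effector T cells are known for glycolysis.

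All cells came from P14 mice, whose transgenic TCR recognises the gp33–41 peptide of a viral glycoprotein. Naïve cells, TCR activated cells and TCR activated cells with PI3Kdi were each represented by 3 biological replicates from female mice of 9 to 13 weeks, and each replicate pooled the lymph node cells of 3 mice and was split between these conditions. Naïve cells were sorted directly as TCRβ+ CD8+ cells with a naïve surface phenotype that included low CD44, whereas the activated cells were sorted as live CD8+ cells after 24 h in culture. The culture held the gp33–41 peptide at 100 ng/ml, IL-2 at 20 ng/ml and IL-12 at 2 ng/ml. PI3Kdi stands for IC87114, an inhibitor of the PI3K catalytic subunit p110δ, which was present at 10 µM, and the other activated cells received vehicle. CTL were P14 cells activated for 48 h and then expanded in IL-2, after which they were washed and given 20 ng/ml IL-2 again or left without it for 24 h, with 3 replicates of each. The age of the mice behind the CTL and a sort of the CTL are not given in the sources used here. For CTL with IL-2, the treatment label names a different interleukin in replicates 2 and 3, and these libraries were grouped by their titles.

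Expression is given as FPKM, read fragments scaled to exon length and library size, which the authors computed after TMM normalisation, so that a level is relative to the other mRNA of the library and levels of different genes can be compared per length. The read totals are unknown, so no counting error is attached to a value. Within the groups, the Pearson r of pairs of libraries across genes was between 0.983 and 0.995. The 5 CD8 T cell markers Cd8a, Cd8b1, Cd3e, Cd3d and Cd3g summed to 3189 to 3482 FPKM in naïve cells, 637 to 685 FPKM in TCR activated cells, 811 to 953 FPKM with PI3Kdi, 971 to 1042 FPKM in CTL with IL-2 and 1876 to 2069 FPKM in CTL without IL-2. Of 5 B cell markers, 4 were measured in the first table and summed to 20.9 to 26.3 FPKM in naïve cells, 4.63 to 7.12 FPKM in TCR activated cells and 3.30 to 4.58 FPKM with PI3Kdi, with Cd79b alone at 19.6 to 21.8 FPKM in naïve libraries. In CTL only Cd79b was listed, at 2.74 to 6.30 FPKM with IL-2 and 10.8 to 20.6 FPKM without it. Of 5 myeloid markers, Itgam and Cd68 were listed and summed to 1.85 to 4.97 FPKM in the first table. In CTL they summed to 5.36 to 9.34 FPKM with IL-2 and 9.99 to 16.9 FPKM without it. Itgam alone was at 0.20 to 0.39 FPKM in CTL with IL-2 and 3.89 to 4.46 FPKM without it, while Cd68 overlapped between these groups. Of 4 dendritic cell markers, the first table listed Zbtb46, at 0.05 to 0.10 FPKM in naïve, 0.48 to 0.64 FPKM in TCR activated and 0.07 to 0.16 FPKM in PI3Kdi treated cells, and the CTL table listed Itgax, at 0.21 to 0.39 FPKM with IL-2 and 3.67 to 5.17 FPKM without it. Cd4 was listed only for CTL, at 0.05 to 0.39 FPKM with IL-2 and 0.92 to 1.92 FPKM without it. Lyz2, Csf1r, Cd14, Col1a1, Col1a2, Pdgfra and the 4 erythroid markers were listed in neither table. Of the NK cell markers only Eomes was listed in the first table, at 12.95 to 15.82 FPKM in naïve cells. It was at 12.4 to 23.8 FPKM in TCR activated and 4.03 to 8.24 FPKM in PI3Kdi treated cells. The paper counts Eomes as a key transcription factor of CD8+ T cells, so its level does not tell NK cells from these. In CTL, Eomes was at 75.8 to 163 FPKM with IL-2 and 9.97 to 20.8 FPKM without it. Klrb1c, listed only for CTL, went the other way, at 1.20 to 1.88 FPKM with IL-2 and 2.17 to 3.41 FPKM without it. The stromal and endothelial list was represented by Pecam1, at 55.6 to 66.0 FPKM in naïve cells, 2.25 to 8.20 FPKM in both activated groups, 22.5 to 30.5 FPKM in CTL with IL-2 and 50.3 to 62.4 FPKM without it. Of markers of naïve T cells, Il7r was at 80.4 to 88.3 FPKM in naïve cells, 5.94 to 12.4 FPKM in TCR activated cells, 25.3 to 38.3 FPKM with PI3Kdi, 26.6 to 61.9 FPKM in CTL with IL-2 and 388 to 430.0 FPKM without it, and the means of Ccr7 in these groups were 182, 131, 198, 38.2 and 108 FPKM. These marker levels moved with the groups compared below, and their part in the results was not tested.

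The members were expressed in every library. In naïve cells Hadha was the highest of the 9 at 44.4 ± 0.725 (SD, n = 3) FPKM, followed by Acadvl at 42.0 ± 4.95 and Hadhb at 38.2 ± 5.09 FPKM, and the libraries of Acadvl overlapped those of both others. Cpt2 was the lowest at 6.18 ± 0.372 FPKM. In TCR activated cells Acadl, at 42.3 ± 4.42 FPKM, stood beside Hadha, at 41.3 ± 0.471 FPKM, and Cpt1a at 5.34 ± 0.774 FPKM took the lowest place from Cpt2 at 8.18 ± 0.565 FPKM. In CTL with IL-2 the order was set by Acadl, which at 159 ± 12.8 FPKM exceeded every other member in each library. Naïve cells had a summed FPKM of the 9 mRNA of 262 ± 24.3, against 232 ± 5.54 for TCR activated and 240.2 ± 11.6 for PI3Kdi treated cells. Relative to naïve cells, the summed level in TCR activated cells was 0.883. In CTL the sum was 372 ± 9.30 with IL-2 and 378 ± 8.33 without IL-2, a ratio of 1.02. The sum hardly moved when IL-2 was withdrawn although single members moved in opposite directions, and Acadl made up 42.7 ± 2.94% of the sum with IL-2 and 25.7 ± 0.990% without it. In naïve cells Acadl accounted for 11.8 ± 0.550% of the sum.

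**Figure D1:**
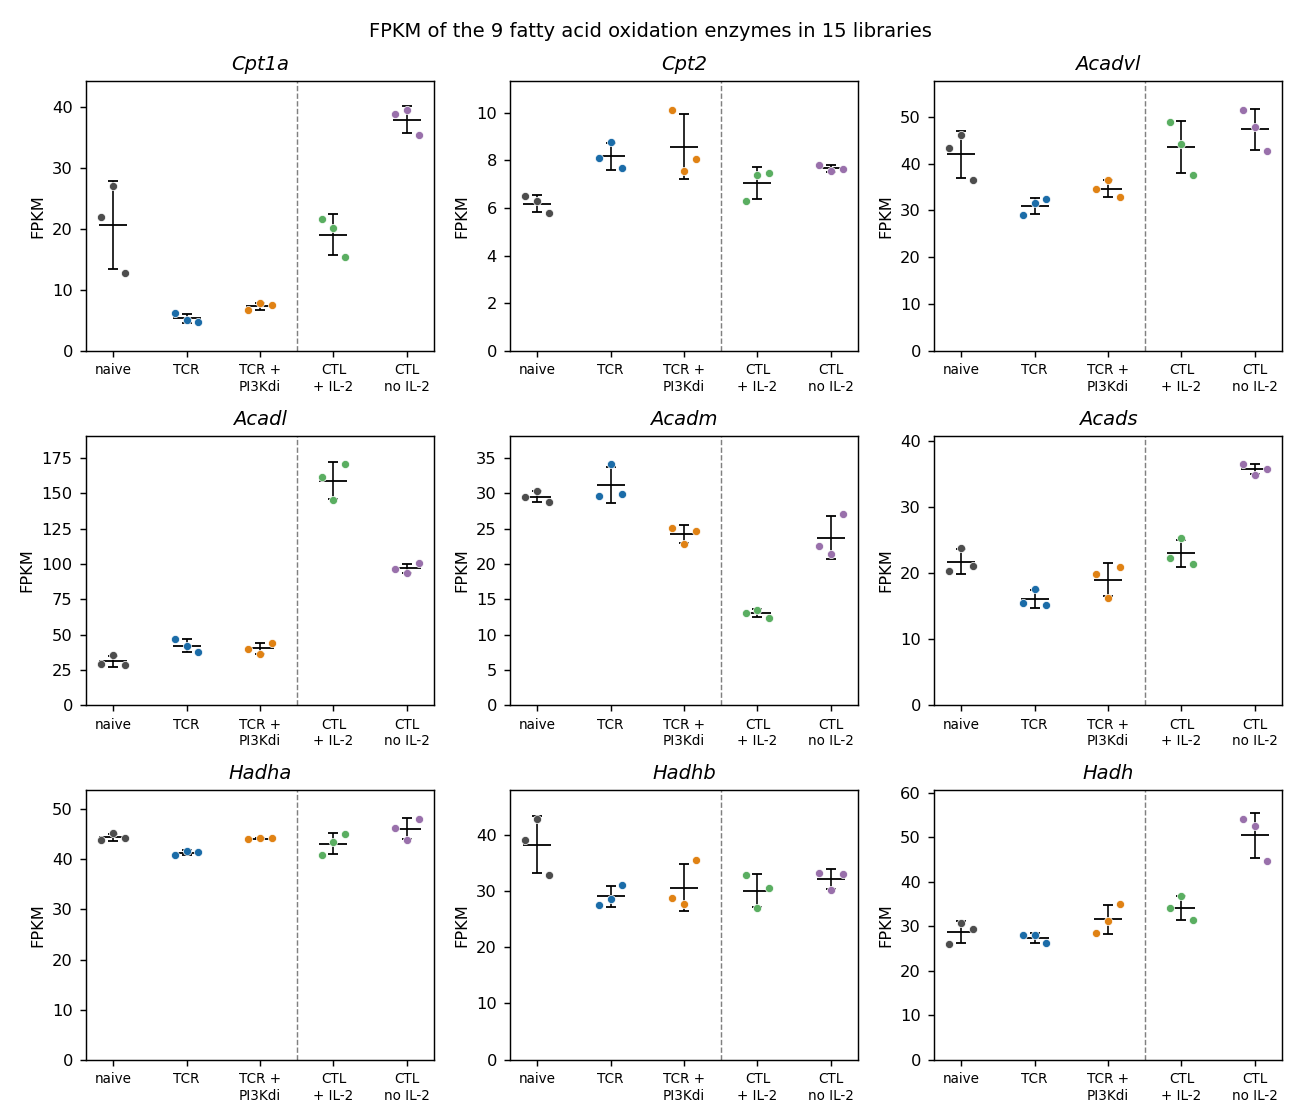
FPKM of each of the 9 enzymes (vertical axis, linear and starting at 0, with its own scale in each panel) in the 15 libraries, by group on the horizontal axis. Points are libraries, and bars are the mean and SD of 3 replicates. The dashed line parts the 2 tables, which were normalised separately. Cpt1a was at 4.70 to 6.20 FPKM in TCR activated cells against 12.8 to 27.0 FPKM in naïve cells, and Acadl was at 145 to 170.4 FPKM in CTL with IL-2.

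The first comparison set cells after 24 h of TCR activation against naïve cells. The peptide, the culture with IL-2 and IL-12 and the different sort go together in it and cannot be told apart. Only Cpt1a passed the threshold of an adjusted p under 0.05 with a change of more than 2-fold, and it fell. Of all genes, 25.0% passed as higher and 23.7% as lower in this comparison, so that 1 lower and 0 higher of 9 were below both shares. With no limit on the fold change, 2 members were higher (Cpt2 and Acadl) and 4 were lower (Cpt1a, Acadvl, Acads and Hadhb), where 40.9% of all genes were higher and 39.8% lower. Of these, Cpt2 did not pass without TCR activated replicate 2 (adjusted p = 0.055), nor Hadhb without naïve replicate 2 (adjusted p = 0.052). The median log2 fold change of the 9 members was -0.10, beside 0.01 for all genes. Naïve and activated libraries did not overlap for 7 of the 9 members and for 80.7% of all genes. Over all genes the log2 fold change had a median size of 0.97, and the 8 members other than Cpt1a moved by at most 0.45 in either direction.

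Cpt1a (Entrez 12894, chromosome 19 of GRCm38.p6 from 3322326 to 3385735) had 22.0, 27.0 and 12.8 FPKM in the 3 naïve libraries and 6.20, 5.12 and 4.70 FPKM in those activated through the TCR. Every naïve library was above every activated one, with replicate 3 the lowest of the naïve libraries. The log2 fold change was -1.87 (SE, its standard error, 0.23, 95% interval -2.37 to -1.37, adjusted p = 1.4e-05). It was between -2.18 and -1.64 when each library was left out in turn. Because the libraries come from bulk cells, fewer cells that express a gene and less of its mRNA per cell cannot be told apart here. Nor can either be told apart from a rise of the other mRNA, because FPKM is relative to it.

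Cpt2 (Entrez 12896, chromosome 4 from 107903982 to 107923589), the partner of Cpt1a in the carnitine shuttle, went the other way. It had 6.49, 6.29 and 5.77 FPKM in naïve libraries and 8.09, 8.78 and 7.66 FPKM after activation, and the groups did not overlap. Its log2 fold change of 0.40 (SE 0.13, adjusted p = 0.015) was under 2-fold. Within a library, the ratio of Cpt1a to Cpt2 was 3.39, 4.30 and 2.22 in naïve cells and 0.77, 0.58 and 0.61 in TCR activated cells. The gene coding for the entry step was thus several times more abundant than its partner before activation and less abundant after it, and this ratio does not depend on how the libraries were scaled.

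The 4 acyl-CoA dehydrogenases, which introduce the first double bond, split by chain length without an ordered trend. Acadvl (Entrez 11370, chromosome 11 from 70010183 to 70015428), for very long chains, was at 43.4, 46.1 and 36.5 FPKM in naïve cells and 28.9, 31.5 and 32.4 FPKM in TCR activated cells, a log2 fold change of -0.43 (adjusted p = 0.0017). Acadl (Entrez 11363, chromosome 1 from 66830839 to 66863309), for long chains, was at 29.1, 35.5 and 28.4 FPKM before and 46.8, 42.0 and 38.0 FPKM after activation, a log2 fold change of 0.45 (adjusted p = 0.0040). Naïve and activated libraries were apart for both, with Acadvl lower and Acadl higher after activation. Acadm (Entrez 11364, chromosome 3 from 153922353 to 153944643), for medium chains, had a log2 fold change of 0.08 (95% interval -0.11 to 0.26, adjusted p = 0.42), and its naïve libraries at 28.8, 29.4 and 30.3 FPKM overlapped the activated ones at 29.6, 34.1 and 29.8 FPKM through 1 library. Acads (Entrez 11409, chromosome 5 from 115110299 to 115119346), for short chains, went from 20.3, 23.9 and 21.1 FPKM to 15.5, 17.7 and 15.2 FPKM, a log2 fold change of -0.43 (adjusted p = 0.0053). None of these changes reached 2-fold.

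Hadha (Entrez 97212, chromosome 5 from 30119423 to 30154980) and Hadhb (Entrez 231086, chromosome 5 from 30155253 to 30184593) code for the α and β subunits of the mitochondrial trifunctional protein. The α subunit holds the hydratase and long-chain hydroxyacyl-CoA dehydrogenase activities and the β subunit the thiolase. The genes lie head to head and are transcribed away from each other. In RefSeq 272 bases separate them, and between the outermost transcripts of the GENCODE vM21 annotation 85 bases remain. These bases (chr5:30155163-30155247, plus strand of GRCm38.p6, from RefSeq) are shown because the starts of both subunit genes flank them.

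between Hadha and Hadhb: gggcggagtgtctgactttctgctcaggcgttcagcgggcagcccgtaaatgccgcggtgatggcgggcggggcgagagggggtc

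This stretch is 69.4% G and C, is printed in the direction of Hadhb transcription and held no match to the motifs searched. In the 250 bases before the RefSeq start of each of the 9 members, both strands were searched for TCAAGGTCA (an estrogen-related receptor motif), CACGTG (E-box), GTAAACA (a FOXO motif) and the PPRE, a pair of AGGTCA sites parted by 1 base, and none was found. Among 32851 RefSeq promoters of that length these motifs were present in 0.387%, 6.02%, 3.17% and 0.0335%, respectively. The absence of these letters in a short window says nothing of the factors.

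Hadha was the steadiest member. It had 43.8, 45.2 and 44.2 FPKM in naïve libraries, 40.8, 41.7 and 41.4 FPKM in TCR activated libraries and 44.0, 44.2 and 44.2 FPKM with PI3Kdi, so its highest group mean was 1.08 times the lowest. The log2 fold change on activation was -0.10 (95% interval -0.25 to 0.04, adjusted p = 0.16). Hadhb was at 39.1, 42.8 and 32.8 FPKM in naïve libraries and at 27.4, 28.5 and 31.1 FPKM after activation, a log2 fold change of -0.39 (adjusted p = 0.012). The ratio of Hadha to Hadhb in a library was 1.18 ± 0.154 in naïve cells. In the other 4 groups it averaged between 1.43 and 1.46. Naïve replicate 3, at 1.349, was above single libraries of TCR activated cells (1.33), PI3Kdi treated cells (1.245) and CTL with IL-2 (1.246). CTL without IL-2, at 1.392 and above, did not overlap the naïve libraries. Hadh (Entrez 15107, chromosome 3 from 131233419 to 131272101), the short-chain hydroxyacyl-CoA dehydrogenase, had 26.1 to 30.8 FPKM in naïve and 26.1 to 28.0 FPKM in TCR activated libraries, and the log2 fold change was -0.07 (95% interval -0.28 to 0.15, adjusted p = 0.55).

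**Figure D2:**
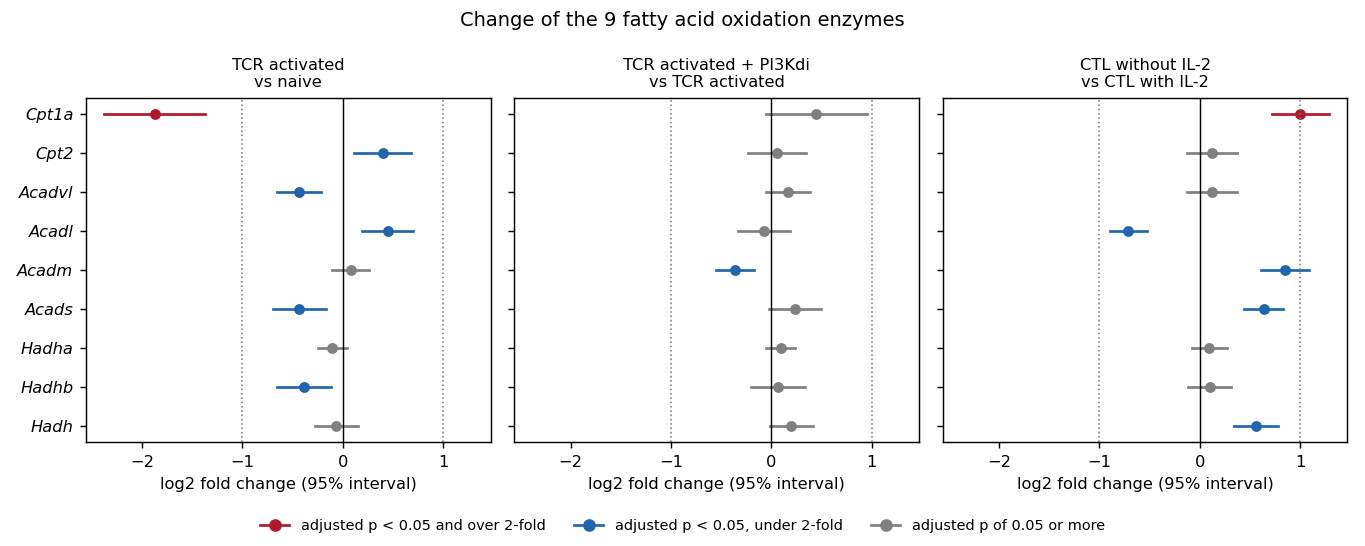
Log2 fold change of each of the 9 enzymes with its 95% interval from limma (horizontal axis, dotted lines at 2-fold) in 3 comparisons, with n = 3 libraries in each group. On activation Cpt1a changed by -1.87, beyond the 2-fold line. With PI3Kdi 8 of the 9 intervals included 0, and without IL-2 Cpt1a stood on the 2-fold line at 1.00 while Acadl lay at -0.71.

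The second comparison asked whether blocking p110δ during activation altered these mRNA. No member passed with a change of more than 2-fold, where 3.04% of all genes passed as higher and 2.10% as lower. With no limit on the fold change, only Acadm passed, as lower, where 9.35% of all genes were higher and 8.19% lower. At an unadjusted p under 0.05, Acadm was also the only one. Acadm had 29.6, 34.1 and 29.8 FPKM in TCR activated libraries and 25.1, 22.8 and 24.7 FPKM with PI3Kdi, without overlap. Libraries with and without PI3Kdi did not overlap for 5 members and for 36.7% of all genes. The log2 fold change was -0.36 (SE 0.09, adjusted p = 0.015), and the adjusted p ranged from 0.012 to 0.079 over the alternatives tried, with the call lost without replicate 2 of either group.

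Cpt1a had 6.66, 7.77 and 7.44 FPKM with PI3Kdi, each above the 3 libraries without it. The log2 fold change of 0.45 had a 95% interval from -0.05 to 0.95 and did not pass (adjusted p = 0.21). The interval rests on a spread shared with the naïve libraries, which varied most for this gene, and in a fit of only the 2 groups compared the adjusted p was 0.067. For the other 7 members the log2 fold changes lay between -0.07 (Acadl) and 0.23 (Acads), and the widest of their intervals ran from -0.23 to 0.35 (Cpt2) and from -0.20 to 0.34 (Hadhb). Changes of 2-fold were outside the 95% intervals of all 9 members.

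Cells activated with PI3Kdi were also set against naïve cells. This comparison and that of TCR activated with naïve cells use the same naïve libraries and are therefore not independent. Cpt1a was lower by -1.42 on the log2 scale (SE 0.23, adjusted p = 1.4e-04) and was the only member past 2-fold, where 23.6% of all genes were higher and 21.3% lower. With no limit on the fold change, Cpt2 (0.46) and Acadl (0.37) were higher and Cpt1a, Acadvl (-0.27), Acadm (-0.29) and Hadhb (-0.32) were lower, where 40.1% of all genes were higher and 39.0% lower. Acadvl and Hadhb did not pass under median scaling (adjusted p = 0.10 and 0.095) or without single libraries, with adjusted p up to 0.10 for Acadvl (naïve replicate 2) and 0.12 for Hadhb (naïve replicate 2 or PI3Kdi replicate 2), and Acadl did not pass without PI3Kdi replicate 3 (adjusted p = 0.052). Acads was at 19.9, 16.2 and 21.0 FPKM with PI3Kdi, overlapping the naïve libraries (log2 fold change -0.20, adjusted p = 0.14).

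The third comparison asked what CTL did in the 24 h after IL-2 was removed. Cpt1a was the only member past the 2-fold threshold and was higher, where 14.3% of all genes were higher and 13.9% lower. With no limit on the fold change, Cpt1a, Acadm, Acads and Hadh were higher and Acadl was lower, where 35.2% of all genes were higher and 36.6% lower. The median log2 fold change was 0.12 for the members and 0.00 for all genes. Libraries with and without IL-2 did not overlap for 6 members and for 76.1% of all genes.

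Cpt1a had 21.6, 20.2 and 15.3 FPKM with IL-2 and 38.8, 39.5 and 35.3 FPKM without it. The groups were far apart, and the log2 fold change was 1.00 (SE 0.13, 95% interval 0.72 to 1.29, adjusted p = 7.9e-05). The call rests on the limit of 2-fold and not on the p-value. The ratio of the group means in FPKM was 1.99. The log2 fold change fell just under 1 with a pseudocount of 1 (0.97) and without replicates 1 or 2 of the CTL without IL-2 (0.98 and 0.97). It fell further, to 0.85, without replicate 3 of the CTL with IL-2, the lowest library at 15.3 FPKM. Cpt2 had 6.29, 7.40 and 7.47 FPKM with IL-2 and 7.81, 7.54 and 7.63 FPKM without it, and its log2 fold change of 0.12 did not pass (95% interval -0.12 to 0.37, adjusted p = 0.34). The ratio of Cpt1a to Cpt2 was 2.74 ± 0.697 with IL-2 and 4.95 ± 0.304 without it.

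Among the acyl-CoA dehydrogenases, Acadl moved against Acadm and Acads. Acadl was at 161, 145 and 170.4 FPKM with IL-2 and at 96.6, 93.9 and 100.4 FPKM without it, a log2 fold change of -0.71 (SE 0.08, adjusted p = 3.9e-05). Acadm was at 13.1, 13.5 and 12.4 FPKM with IL-2 and at 22.5, 21.4 and 27.1 FPKM without it, a log2 fold change of 0.85 (SE 0.11, adjusted p = 6.8e-05). Neither gene had overlapping groups. Acads, at 22.3, 25.3 and 21.4 FPKM with IL-2, was at 36.5, 35.0 and 35.8 FPKM without it, a log2 fold change of 0.64 (adjusted p = 1.2e-04). Acadvl did not pass, at 37.6 to 48.9 FPKM with IL-2 and 42.7 to 51.5 FPKM without it (log2 fold change 0.12, 95% interval -0.13 to 0.37, adjusted p = 0.34).

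Further along the spiral, Hadh was at 34.2, 36.8 and 31.4 FPKM with IL-2 and at 54.1, 52.5 and 44.7 FPKM without it, a log2 fold change of 0.56 (adjusted p = 6.4e-04). Neither subunit of the trifunctional protein passed, although both were higher without IL-2 in each of the 3 pairs of libraries with the same number, as were Cpt2 and Acadvl, and none of these 4 passed with the replicate number as a block (adjusted p = 0.21 to 0.37). Hadha was at 40.8 to 45.0 FPKM with IL-2 and 43.9 to 48.1 FPKM without it, and Hadhb at 26.9 to 32.8 FPKM and 30.1 to 33.2 FPKM. Their log2 fold changes were 0.09 (95% interval -0.08 to 0.27, adjusted p = 0.29) and 0.10 (95% interval -0.11 to 0.31, adjusted p = 0.37), so that changes of 2-fold were outside both intervals.

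The tables of the naïve and activated cells and of the CTL were normalised separately, and no test was made between them. Ratios of members within a library do not depend on that normalisation and can be put side by side. This is a description chosen after the values were seen. CTL were present only in the second set of libraries, so in these ratios cell state cannot be told apart from experiment or processing. The ratio of Acadl to Acadm was 1.05 ± 0.104 (SD, n = 3) for naïve and 1.36 ± 0.191 for TCR activated cells, 1.66 ± 0.114 with PI3Kdi, 12.3 ± 1.49 in CTL with IL-2 and 4.13 ± 0.371 in CTL without IL-2. The lowest value in CTL was 3.70 and the highest in the other groups 1.79. For Acadvl and Acadl the order reversed, since Acadvl was 1.36 ± 0.114 times Acadl in naïve cells and 0.276 ± 0.0477 times in CTL with IL-2. The ratio of Cpt1a to Cpt2 was lowest in the 2 groups at 24 h of activation, at 0.654 ± 0.0982 and 0.87 ± 0.19, which overlapped each other and neither overlapped the other 3 groups.

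**Figure D3:**
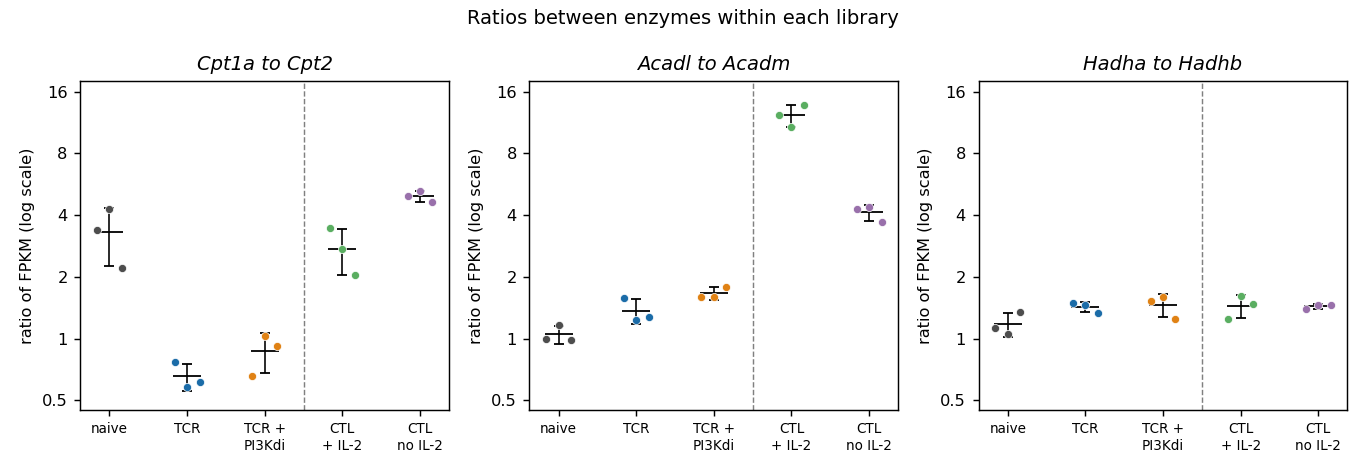
Ratio of the FPKM of Cpt1a to Cpt2, Acadl to Acadm and Hadha to Hadhb in each of the 15 libraries (vertical axis, log scale) by group. Points are libraries, bars the mean and SD of 3 replicates, and the dashed line parts the 2 tables. Cpt1a to Cpt2 was under 1.03 in all libraries at 24 h of activation, Acadl to Acadm was 10.8 to 13.7 in CTL with IL-2, and Hadha to Hadhb stayed between 1.06 and 1.62.

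Within the first table, the pattern of each member over the 9 libraries was set beside those of 10072 genes with a mean of at least 1 FPKM, by the Pearson r of log2(FPKM + 0.1). Because these libraries form 3 groups that differ in many genes, high values arise widely, and they are given as a description. The genes most like Cpt1a were Cr1l (0.985), Mpst (0.983) and Zfp748 (0.978), and those most like Acadl were Snord22 (0.949), D930014E17Rik (0.945) and Psph (0.942). Among the members, Cpt1a ran most closely with Acadvl (0.922) and Hadhb (0.845) and opposite to Cpt2 (-0.739) and Acadl (-0.674). Hadh had r between -0.565 and 0.541 with the others. Acadm, the one member that passed with PI3Kdi when no fold limit was set, was most like Pak1 (0.966).

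The genes around these enzymes were counted in lists of the fatty acid pathway, with the same threshold of 2-fold, which 25.0% of all genes passed as higher and 23.7% as lower on activation. Peroxisomes shorten very long and branched chains, and on activation 7 of the 12 peroxisomal β-oxidation genes measured fell and 1 rose, with a median log2 fold change of -1.61. Crot, which makes carnitine esters of medium chains in peroxisomes, fell by 2.65 and the oxidase Acox3 fell by 2.41 on the log2 scale. Crot averaged 22.0 ± 3.57 (SD, n = 3) FPKM before and 3.41 ± 0.467 FPKM after activation. Of the 16 other mitochondrial β-oxidation genes, 5 fell and 0 rose, namely Acad10 (-2.61), the thiolase Acaa2 (-1.70), Acot13 (-1.22), Ech1 (-1.17) and Acad11 (-1.04), and the median was -0.52. Acaa2, the monofunctional thiolase, averaged 39.1 FPKM before and 11.9 FPKM after activation.

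Genes for the uptake of fatty acids and their activation with coenzyme A went mostly the other way on activation, with 7 of 11 higher and 2 lower. The fatty acid binding protein Fabp5 rose from 2.56 to 141 FPKM on average (log2 fold change 5.89). The acyl-CoA synthetase Acsl6 had values of 0 in all 3 naïve libraries and of 13.1, 10.1 and 4.93 FPKM after activation. The transporter Slc27a1 fell by 1.94 on the log2 scale. Of 17 tricarboxylic acid cycle genes 6 rose and 0 fell, led by Idh3a (1.72), Fh1 (1.71) and Sdhd (1.45). Among 15 regulators, Acaca, one of the 2 acetyl-CoA carboxylase genes, rose by 2.04 on the log2 scale, and Mlycd, whose product removes malonyl-CoA, fell by 1.27 on that scale. Acacb, the other carboxylase gene, whose product is known for the malonyl-CoA that restrains CPT1 at mitochondria, changed by -0.74 (adjusted p = 0.021) from a mean of 0.307 to 0.15 FPKM, under 2-fold, and is named after its values were seen. Of 7 lipolysis and lipid droplet genes 1 rose, Mgll (3.58), and 3 fell, Lipa (-2.74), Plin3 (-1.27) and Plin2 (-1.22). The carnitine transporter gene Slc22a21 (1.42, from a mean of 0.09 FPKM) and Etfb (1.00, barely past 2-fold), a subunit of the flavoprotein that takes the electrons from the dehydrogenases, were the calls in their lists, of 5 and 3 measured genes. None of the 4 genes of the propionyl-CoA branch passed.

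With PI3Kdi, 2 genes of all these lists passed the threshold against TCR activated cells, and both were lower. Acsl6 changed by -3.01 (SE 0.33, adjusted p = 1.6e-04), from a mean of 9.39 to 1.02 FPKM, and the lipid droplet gene Plin2 by -1.18 (SE 0.18, adjusted p = 0.0011), from 1.69 to 0.697 FPKM. With no limit on the fold change, where 9.35% of all genes were higher and 8.19% lower, 5 of the 12 peroxisomal genes, 3 of the 16 other mitochondrial β-oxidation genes and 1 of the 15 regulators were higher and 0 lower. At this setting 3 of the 11 uptake and activation genes and 3 of the 7 lipolysis and lipid droplet genes were lower. So were 2 of the 17 tricarboxylic acid cycle genes. In the uptake and activation, the lipolysis and lipid droplet and the tricarboxylic acid cycle lists, 0 genes were higher at this setting.

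When IL-2 was withdrawn from CTL, where 14.3% of all genes passed as higher and 13.9% as lower, 2 of 12 peroxisomal genes, Acox3 (1.28) and Crot (1.16), rose and 0 fell. Of 16 other mitochondrial β-oxidation genes, Acad10 (1.96) and the thioesterase Acot2 (1.48) rose and 0 fell. These shares are near that of all genes. With no limit on the fold change, where 35.2% of all genes were higher and 36.6% lower, 10 of each list were higher, and 1 and 2 were lower, with median log2 fold changes of 0.63 and 0.41. At this setting the uptake and activation list had 2 of 8 higher and 6 lower (median -0.81), and the tricarboxylic acid cycle 1 of 17 higher and 14 lower (median -0.50). In the list of uptake and activation 3 of 8 fell, Fabp5 (-2.13), Acsl3 (-1.70) and Acsl1 (-1.39), and 2 rose, Acsf2 (1.36) and Slc27a1 (1.02). The tricarboxylic acid cycle had 4 of 17 lower and 0 higher, and Idh3a (-1.27), the malate dehydrogenase gene Mdh2 (-1.25) and Fh1 (-1.01) were among those that fell. Of 16 regulators, Acaca fell by 1.72 while Acacb (1.39, from a mean of 0.11 FPKM) and the mitochondrial deacetylase gene Sirt3 (1.04) rose. Of 7 lipolysis and lipid droplet genes Mgll fell by 1.44 and 0 rose. No gene passed among the 4 carnitine shuttle partners, the 3 electron transfer flavoprotein genes and the 4 of the propionyl-CoA branch.

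**Figure D4:**
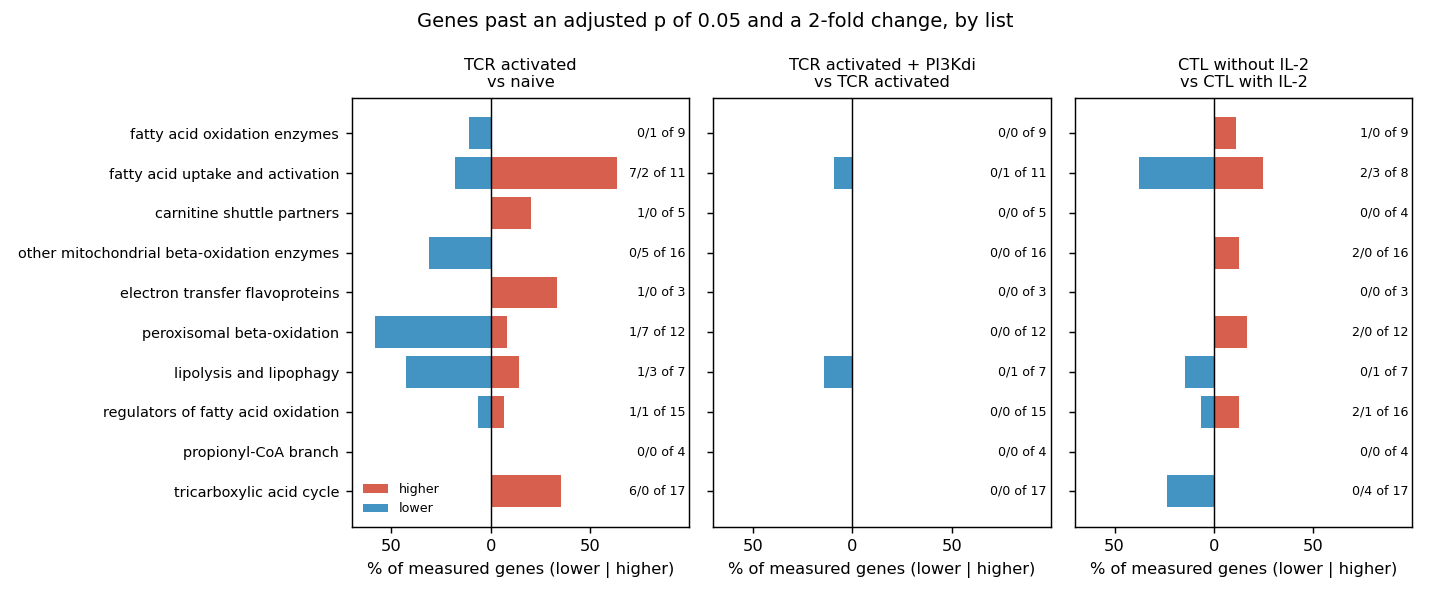
Share of the measured genes of each list that passed an adjusted p of 0.05 and a 2-fold change (horizontal axis, lower to the left and higher to the right of 0) in 3 comparisons, with the counts as higher/lower of measured. On activation 7 of 12 peroxisomal genes were lower and 7 of 11 uptake and activation genes higher, whereas of the 9 fatty acid oxidation enzymes 1 was lower.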

How the data were processed

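RNA sequencing of 9 libraries of naïve and activated cells and 6 libraries of CTL was used. The authors deposited both tables as FPKM, rounded to 2 decimals. Their methods describe alignment to mm10 by STAR and counting by subread (versions 2.5.2b and 1.5.1 in the submitters' processing notes), then filterByExpr, TMM normalisation in edgeR and division by exon length. These steps were assumed for the CTL too. Blank cells, of which the CD8 file had 1039, were read as 0. Counts were not used here, and whether counting used the strand of the stranded libraries is not given in the sources used here.

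Log2(FPKM + 0.1) was fitted with limma 3.58.1 in R 4.3.3 (intensity trend, Benjamini-Hochberg over all genes of a table), in 1 fit per table, and tested on simulated data. Summaries used Python 3.11.15, pandas 2.3.3, numpy 2.4.6 and matplotlib 3.10.9. Calls needed an adjusted p under 0.05 and a change of more than 2-fold in either direction. Fold changes are on the log2(FPKM + 0.1) scale. Members and lists were chosen with earlier results of these data known. List genes named were the up to 3 largest changes among calls, or all of 5 or fewer calls, and some genes that this rule would name are not reported here. Replicate numbers were taken to pair the libraries because pools were divided between conditions. For CTL, deviations from group means correlated at 0.123 to 0.257 in each pair. For TCR activated cells with and without PI3Kdi these were 0.203 to 0.506, and for naïve and TCR activated cells -0.181 to 0.226. For naïve and PI3Kdi treated cells they were -0.017 to 0.03. Such values cannot show pairing, since they were not steadily positive for naïve and activated cells, whose pools were divided. That equal numbers mark 1 pool is an assumption.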

Additional observations from a re-analysis of the deposited data

How the results depend on the processing

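The alternatives were a pseudocount of 1 or 0.01, a minimum mean FPKM of 1, median scaling, the replicate block, no intensity trend, only the groups compared, other fold limits and leaving out each library. The fall of Cpt1a on activation kept its direction and call under all of them, between -2.18 and -1.64 on the log2 scale. With the replicate block its adjusted p was 1.7e-05, and pairing by the block changed no member's call or count.

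With no fold limit, 2 members were higher and 4 lower in TCR activated and in PI3Kdi treated cells against naïve cells, 1 was lower with PI3Kdi against TCR activated cells, and 4 were higher and 1 lower in CTL without IL-2. With a limit of 1.5-fold 3 were higher and 1 lower in CTL without IL-2. The call of Cpt1a in CTL was lost, leaving 0 higher, with a pseudocount of 1, and the count ranged from 0 to 1 when libraries were left out (0 without CTL with IL-2 replicate 3 and without CTL without IL-2 replicates 1 or 2), because its fold lay at the limit.

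Directions turned only for changes near 0 that had not passed. Median scaling gave 0.013 for Hadh (TCR activated against naïve) and 0.072 for Hadha (PI3Kdi against naïve). Leaving out a library took Acadl with PI3Kdi against TCR activated cells to between -0.15 and 0.0042 (0.0015 without PI3Kdi replicate 2), Cpt2 to between -0.064 and 0.14, Hadhb to between -0.040 and 0.14, and Hadha with PI3Kdi against naïve cells to between -0.020 and 0.0030. The ratios of the summed FPKM stayed within 0.846 and 1.06. Median scaling moved the median of all genes by under 0.1. Read depth is unknown and 3 replicates limit the precision, which the intervals give.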
